A study of Mus musculus with 12 samples.

Results

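The genes described here are 40 transcripts that T cells and natural killer (NK) cells are known for, found by symbol among the 23420 genes of the count table, where all 40 were listed. They comprise the CD3 and zeta chains of the T cell receptor complex, the CD4 and CD8 coreceptors, other T cell surface molecules, signaling proteins, transcription factors, cytotoxic effectors, NK receptors and chains of the IL-2 receptor. RNA was sequenced from 12 subcutaneous tumors of B16-F10, a single melanoma cell line of C57BL/6 origin, grown in male C57BL/6J mice that have their own immune system. Nonobese mice had a control diet and obese mice a Western diet with 0.2% cholesterol, given to males for 15 weeks until body weight had risen by 50%. On either diet, an antibody against PD-1 or its isotype control (10 mg/kg, 3 injections into the peritoneum per week) was started when a tumor was palpable. This gave 4 groups of 3 tumors, namely isotype-treated nonobese, anti–PD-1–treated nonobese, isotype-treated obese and anti–PD-1–treated obese mice. The labels number the tumors 1 to 3 within each group and do not say whether a number means the same in different groups.

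T cells recognize peptides through a receptor whose CD3 and zeta chains pass the signal on to the kinases Lck and Zap70 and to the adaptor Lat. CD8+ T cells and NK cells kill by releasing perforin and granzymes, whereas CD4+ cells help other cells or, where they express Foxp3, restrain them. PD-1, encoded by Pdcd1, is an inhibitory receptor of activated T cells, and antibodies against it are given to relieve that inhibition in melanoma. B16-F10 tumors are known for a sparse infiltrate of lymphocytes.

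Each of the 40 genes had an entry in RefSeq (GRCm38.p6, to which mm10 belongs), and all are protein coding. Several lie next to each other. Cd3g and Cd3d on chromosome 9 are transcribed away from each other with 1337 bases between them, and Cd3e lies 11682 bases beyond Cd3d. Cd8b1 and Cd8a on chromosome 6 are 35934 bases apart, and Klrd1, Klrk1 and Klrc1 share another stretch of that chromosome. RefSeq start windows of 300 bases (250 before and 50 after a start) were at hand for 28 of the 40 genes, but not for Cd28, Il2rb, Ptprcap, Cd6, Cd2, Cd69, Cd7, Skap1, Klrd1, Cd8b1, Cd4 and Sh2d1a. The bases before the outermost RefSeq start of 6 genes that rose with anti–PD-1 in obese mice, and of Lck are given below, 200 bases each except for 165 bases of Prf1. They show the DNA in front of genes called in the same comparison and of one that was not called. Each runs 5′ to 3′ on the strand of its gene, and capitals mark matches, on either strand, to the letters AGGAAG (core of many ETS sites), TGTGGT (core of many RUNX sites) or TCACAC (core of many T-box sites).
Cd3d (chr9:44981569-44981768, plus strand): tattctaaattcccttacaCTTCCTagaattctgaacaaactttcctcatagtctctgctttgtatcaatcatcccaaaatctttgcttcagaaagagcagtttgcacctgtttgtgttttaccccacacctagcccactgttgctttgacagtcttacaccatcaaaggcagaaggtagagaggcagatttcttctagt
Cd3g (chr9:44980432-44980631, minus strand): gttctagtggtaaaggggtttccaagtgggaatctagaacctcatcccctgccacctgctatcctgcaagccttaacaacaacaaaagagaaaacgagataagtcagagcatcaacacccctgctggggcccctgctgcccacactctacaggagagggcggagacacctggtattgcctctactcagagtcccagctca
Cd8a (chr6:71373227-71373426, plus strand): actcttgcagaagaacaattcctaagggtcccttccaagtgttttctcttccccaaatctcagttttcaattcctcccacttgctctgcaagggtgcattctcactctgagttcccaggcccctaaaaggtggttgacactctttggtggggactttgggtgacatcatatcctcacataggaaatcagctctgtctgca
Gzmb (chr14:56262335-56262534, minus strand): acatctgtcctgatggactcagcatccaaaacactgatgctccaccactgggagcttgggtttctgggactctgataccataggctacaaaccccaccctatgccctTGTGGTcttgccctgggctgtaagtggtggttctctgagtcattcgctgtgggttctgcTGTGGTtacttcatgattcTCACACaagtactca
Prf1 (chr10:61297586-61297750, plus strand): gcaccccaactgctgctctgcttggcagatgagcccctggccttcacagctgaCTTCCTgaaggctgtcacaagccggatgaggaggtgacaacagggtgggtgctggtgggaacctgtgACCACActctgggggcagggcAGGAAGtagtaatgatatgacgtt
Nkg7 (chr7:43436938-43437137, plus strand): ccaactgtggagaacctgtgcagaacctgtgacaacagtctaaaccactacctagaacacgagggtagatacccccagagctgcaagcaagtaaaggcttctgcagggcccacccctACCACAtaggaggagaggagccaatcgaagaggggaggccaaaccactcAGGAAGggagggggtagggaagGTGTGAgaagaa
Lck (chr4:129573642-129573841, minus strand): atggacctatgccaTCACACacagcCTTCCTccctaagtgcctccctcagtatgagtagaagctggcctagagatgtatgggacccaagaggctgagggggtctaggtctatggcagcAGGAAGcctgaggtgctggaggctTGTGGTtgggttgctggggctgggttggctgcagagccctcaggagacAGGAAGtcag

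Among the 28 windows of 300 bases, AGGAAG or its reverse was found in 14 (50%), against 35.1% of 27025 windows, 1 per gene. TGTGGT was found in 10 of the 28 (35.7%), against 16.9% of all windows, and TCACAC in 7 (25%), against 14.4%. The stretches before Gzmb, Prf1 and Nkg7 each held 3 matches and that of Lck 5, whereas those of Cd3g and Cd8a held none. A match is a string of letters and was not tested as a binding site.

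Library totals ranged from 14022929 to 33871843 counts. The smallest libraries were obese isotype tumor 2 and obese anti–PD-1 tumor 1, the latter with 14466484 counts. A total of 3 counts, the limit that a count of 0 allows, corresponded to between 0.0881 and 0.211 CPM (counts relative to the TMM-scaled library total), a limit that covers counting error only. Melanocyte markers, which check the tumor line, ranged from 26167 to 32103 summed CPM over the tumors, and none of the 10 was called in any comparison. Pdcd1 itself had 3, 10 and 5 counts in isotype-treated nonobese tumors and 2, 1 and 9 in their anti–PD-1–treated counterparts. Isotype-treated obese tumors held 0, 4 and 12 of its counts and anti–PD-1–treated ones 22, 55 and 11, a log2 fold change of 2.48 ± 0.94 (SE, n = 3 per group, FDR = 0.535 by the edgeR quasi-likelihood test).

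Most of the 40 genes had few counts. In all 12 tumors together they had 10574 counts, 11 genes stayed below 10 counts in every tumor, and 10 genes were detected in every tumor. Tcf7, Lck and Lat held most of the counts, with summed counts of 2263, 1938, 1409 and 1694 in the isotype nonobese, anti–PD-1 nonobese, isotype obese and anti–PD-1 obese groups, against 685, 356, 310 and 1919 for the other 37 genes. The 40 genes together thus gave 2948, 2294, 1719 and 3613 counts. This split into 3 and 37 genes was made after the counts were seen, and it is a description without a test.

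**Figure D1:**
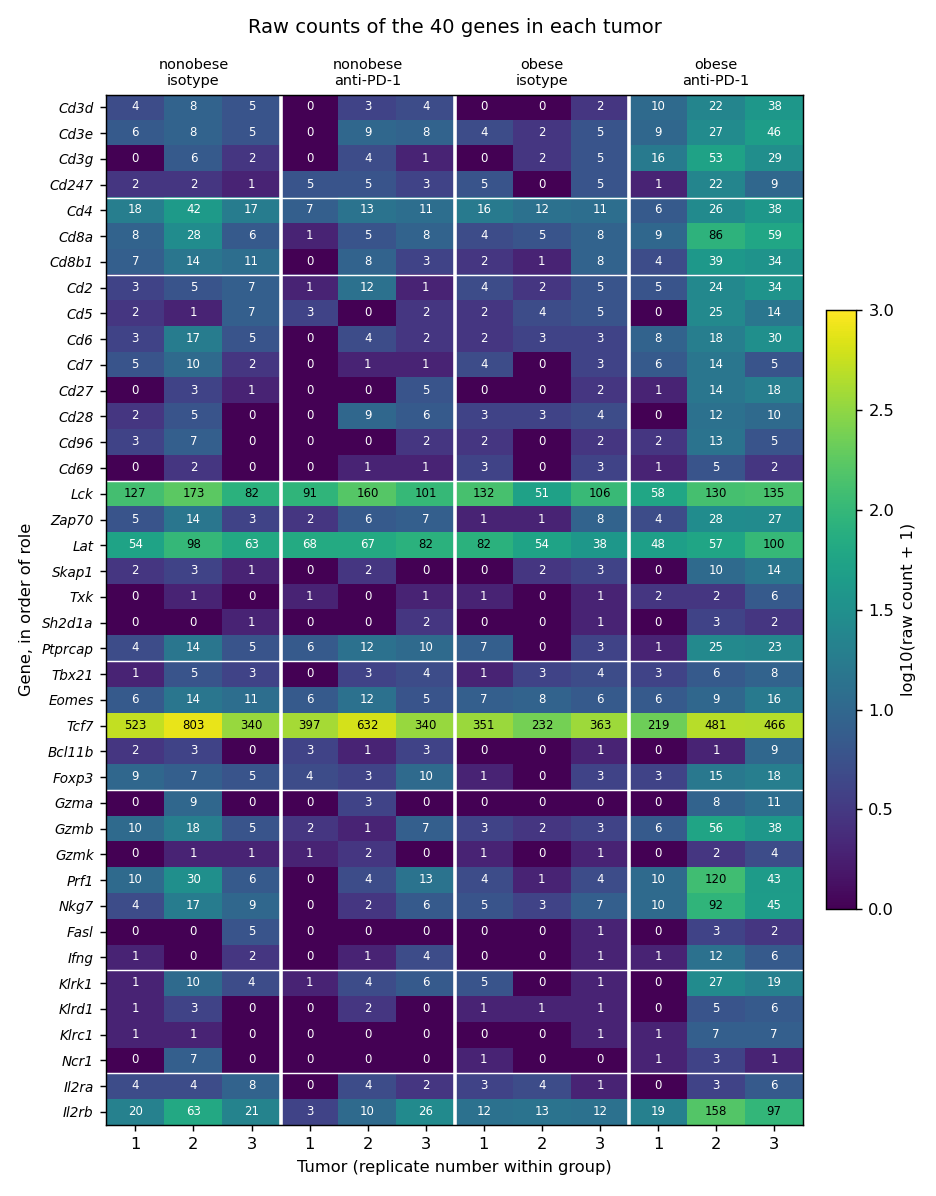
Raw counts of the 40 genes (rows, grouped by role) in each of the 12 tumors (columns, 3 per group), with the count printed in each cell and color on a log10 scale of count + 1. Tcf7, Lck and Lat were high in every tumor, and most other genes had their highest counts in anti–PD-1–treated obese tumors 2 and 3.

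The 37 genes other than Tcf7, Lck and Lat were most abundant in tumors of anti–PD-1–treated obese mice. Their summed counts in the single tumors were 144, 382 and 159 in isotype-treated nonobese mice, 46, 146 and 164 in anti–PD-1–treated nonobese mice, 104, 72 and 134 in isotype-treated obese mice and 145, 995 and 779 in anti–PD-1–treated obese mice. On the CPM scale, the group means were 8.29 ± 3.36, 4.72 ± 2.49, 5.27 ± 1.03 and 31.6 ± 19.7 (SD, n = 3), in the same order. The anti–PD-1 mean in obese mice was 5.99 times the isotype mean, and between 4.34 and 8.01 times with any one tumor left out. The 3 anti–PD-1–treated obese tumors were unequal, at 10.2, 48.9 and 35.5 CPM. Tumor 1 of this group lay above the 3 isotype-treated obese tumors, the highest of which had 6.396 CPM, but below isotype-treated nonobese tumor 2, at 11.2 CPM. In nonobese mice the ratio was 0.569, and the ranges of both groups overlapped. Summed over all 40 genes, CPM averaged 35.5 ± 7.83, 30.8 ± 0.270 and 29.1 ± 1.31 (SD, n = 3) in the first 3 groups and lay at 33.1, 81.8 and 67.5 in the anti–PD-1–treated obese tumors, with log2 ratios of group means of 1.06 for anti–PD-1 in obese mice and -0.21 in nonobese mice. Since whole tumor tissue was sequenced, more lymphocytes and more RNA of these genes per lymphocyte cannot be told apart.

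**Figure D2:**
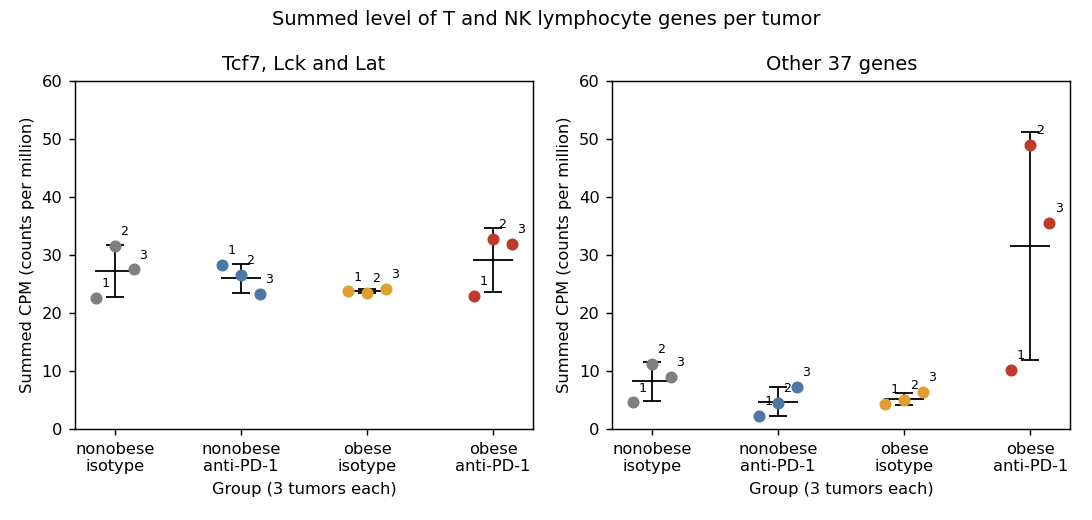
Summed CPM per tumor of Tcf7, Lck and Lat (left) and of the other 37 genes (right), with points for the tumors, numbered by replicate, and bars for the mean ± SD of 3 tumors. The 3 genes on the left stayed between 22.6 and 32.8 CPM in all tumors, whereas the 37 genes reached 48.9 and 35.5 CPM in anti–PD-1–treated obese tumors 2 and 3.

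In obese mice, anti–PD-1 was accompanied by higher levels of the CD3 chains, both CD8 chains, the granule proteins Gzmb, Prf1 and Nkg7, the cytokine receptor chain Il2rb, the surface molecule Cd6, Ptprcap and Foxp3. A gene was called where its fold change was above 2 and its unadjusted P below 0.05, the thresholds of the study, among the 13095 genes that passed a filter on low counts. The filter kept 17 of the 40 genes, several of them through the anti–PD-1–treated obese tumors alone, and 23 were too low to be tested. Of the 17 genes, 12 were called higher, where 2.24% of all genes tested were called higher. Without the filter, 20 of the 40 genes were called higher, against 2.52% of 17519 genes, and the fitted change was upward for all 40, with a median log2 fold change of 2.30 against 0 over all genes. All 3 anti–PD-1–treated tumors lay above all 3 isotype-treated tumors in CPM for 18 of the 40 genes, against 5.02% of the 17519 genes. Adjustment over all genes tested left none of the 17 with an FDR below 0.05 in edgeR, as for 0% of all genes, the lowest FDR being 0.192 for Cd3d. An unadjusted P below 0.05, which the call itself requires, was found for 12 of the 17, against 7.57% of all genes. DESeq2 gave an FDR below 0.05 to 7 of the 17 (Cd3d, Cd3g, Cd8a, Gzmb, Prf1, Nkg7 and Il2rb), against 0.802% of all genes.

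In nonobese mice, anti–PD-1 was accompanied by lower levels of Cd4 and Cd6 in edgeR, calls that DESeq2 at the same thresholds did not make (unadjusted P just above 0.05 for both). None of the 17 genes was called higher, as were 0.115% of all genes tested, so that this 0 is near the background. The 2 of 17 called lower compare with 2.31% of all genes tested. Without the filter, Cd7 joined them, giving 3 of 40 genes against 2.31% of 17519 genes, and the median log2 fold change of the 40 was -0.45 against 0.03 over all genes. Groups did not overlap, with anti–PD-1 lower, for 2 of the 40 (Cd4 and Cd7), against 4.83% of the 17519 genes, and for 1 of the 40 (Cd247) with anti–PD-1 higher, against 4.69% of the 17519 genes. Cd7 and Cd247 share exon sequence with other genes. None of the 17 had an edgeR FDR below 0.05 (0% of all genes), 2 had an unadjusted P below 0.05 (5.23% of all genes) and none had a DESeq2 FDR below 0.05 (0.0687% of all genes). Some of the 17, among them Cd3d, Cd6 and Ptprcap, got no FDR from DESeq2 here and could not be counted. The calls changed with single tumors. None of the 17 was called without isotype nonobese tumor 2, isotype nonobese tumor 3, anti–PD-1 nonobese tumor 1 or anti–PD-1 obese tumor 2, 1 was called without anti–PD-1 nonobese tumor 2 or isotype obese tumor 1, and 6 were called lower without anti–PD-1 nonobese tumor 3. With the replicate number as a block, 6 were called. Shares of all genes called in these fits are not given, so these counts cannot be set against the background.

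The difference between the 2 responses, tested as an interaction of diet and treatment, was called for 12 of the 17 genes, all more positive in obese mice, where 4.93% of all genes tested were called in that direction. These were the 3 CD3 chains, Cd4, Cd8a, Cd8b1, Cd6, Foxp3, Gzmb, Prf1, Nkg7 and Il2rb. Without the filter, 19 of the 40 genes were called, against 4.78% of 17519 genes. No edgeR FDR was below 0.05 (0 of 17 genes and 0% of all genes, lowest FDR of the 17 genes 0.118), 12 of the 17 had an unadjusted P below 0.05 (12.9% of all genes), and 7 had a DESeq2 FDR below 0.05 (2.16% of all genes). The log2 difference ranged from 1.93 ± 0.72 (SE) for Cd4 to 6.05 ± 1.30 for Cd3d.

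**Figure D3:**
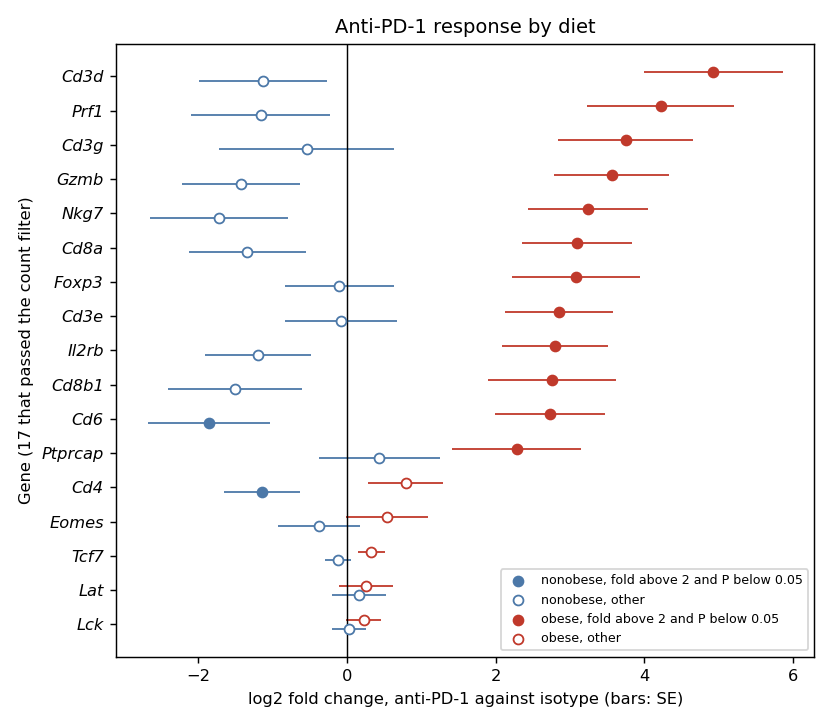
Log2 fold change of anti–PD-1 against isotype (x axis, bars are SE) for the 17 genes that passed the count filter, in nonobese (blue) and obese mice (red), with filled points past the thresholds. In obese mice 12 genes were past them upward, from 2.29 for Ptprcap to 4.93 for Cd3d, and Tcf7, Lat and Lck lay near 0 in both diets.

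Under anti–PD-1, obese against nonobese mice showed higher levels of 11 of the 17 genes, namely the CD3 chains, Cd4, Cd8a, Cd8b1, Cd6, Gzmb, Prf1, Nkg7 and Il2rb, where 3.69% of all genes tested were called higher. Without the filter 20 of the 40 were called, against 3.64% of 17519 genes, and groups were apart for 18 of the 40, against 5.7%. Here 0.382% of all genes had an edgeR FDR below 0.05, and none of the 17 did, with Nkg7 at the threshold (FDR = 0.050004). An unadjusted P below 0.05 was found for 11 of the 17 (10.3% of all genes) and a DESeq2 FDR below 0.05 for 9 (2.06% of all genes). Under isotype the diet comparison called only Cd3d among the 17, as lower in obese mice, where 1.12% of all genes tested were called lower. It was also the single gene called among all 40 without the filter, against 1.52% of 17519 genes, while 4 of the 40 (Cd3d, Foxp3, Gzmb and Prf1) were apart with obese lower, against 7.63%. No gene of the 17 had an edgeR FDR below 0.05 (0% of all genes), 1 had an unadjusted P below 0.05 (13.3% of all genes) and none had a DESeq2 FDR below 0.05 (1.53% of all genes). However, DESeq2 gave no FDR here to many of the 17, among them the CD3 chains, Cd4, Cd8a and Cd8b1. For those genes the DESeq2 count is no test. The Cd3d call under isotype was not made by the current form of glmQLFit, and a model of only the compared tumors called 3 genes. It ended without isotype nonobese tumor 2 or 3 or without isotype obese tumor 1 or 2, and 2 genes were called without isotype obese tumor 3 and 3 without anti–PD-1 obese tumor 1. Shares of all genes called in these fits are not given. These 4 comparisons share tumors, each group entering in 2 of them, so that their results are not independent of each other.

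The chains that hold the T cell receptor together rose with anti–PD-1 in obese mice for all 3 CD3 chains, and their summed level in each of these tumors lay above that of every other tumor. The 4 chains Cd3d, Cd3e, Cd3g and Cd247 (the zeta chain) had a sum of 2.54, 6.10 and 5.56 CPM in these tumors and at most 0.811 CPM elsewhere. Cd3d had 4, 8 and 5 counts in isotype-treated nonobese tumors, 0, 3 and 4 with anti–PD-1, 0, 0 and 2 in isotype-treated obese tumors and 10, 22 and 38 with anti–PD-1. Its pooled counts of 70 against 2 in obese mice gave a ratio per total counts of 36.0, with a 95% interval from 9.59 to 303 for counting error only, and its log2 fold change was 4.93 ± 0.94 (SE, FDR = 0.192). Cd3g had 0, 6 and 2 counts, then 0, 4 and 1, then 0, 2 and 5, and 16, 53 and 29 in the same order of groups, and a log2 fold change of 3.75 ± 0.91 in obese mice (FDR = 0.220). For both genes the smallest count of the anti–PD-1–treated obese tumors exceeded the largest of the other 9 tumors. Cd3e had 6, 8 and 5, then 0, 9 and 8, then 4, 2 and 5, and 9, 27 and 46 counts (log2 fold change 2.85 ± 0.72 in obese mice, FDR = 0.243), and part of its exon sequence is shared with an antisense gene. Cd247 was spread differently, with 2, 2 and 1, then 5, 5 and 3, then 5, 0 and 5, and 1, 22 and 9 counts. Its anti–PD-1–treated obese tumor 1 fell among the other groups, and it was too low to be tested. Cd247 shares exon sequence with genes on both strands, among them Pou2f1, whose reads may not be told apart.

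Both chains of CD8, the coreceptor of cytotoxic T cells, rose with anti–PD-1 in obese mice, whereas Cd4, the coreceptor of helper and regulatory T cells, did not pass the thresholds there with all tumors and was called higher without the tumors numbered 1. The difference between the Cd8a and Cd4 responses was not tested. Cd8a had 8, 28 and 6 counts in isotype-treated nonobese tumors, 1, 5 and 8 with anti–PD-1, 4, 5 and 8 in isotype-treated obese tumors and 9, 86 and 59 with anti–PD-1. The log2 fold change was 3.09 ± 0.74 in obese mice (SE, FDR = 0.220) and -1.34 ± 0.78 in nonobese mice (FDR = 0.929), a difference of 4.43 ± 1.08 (FDR = 0.126). Cd8b1 followed with 7, 14 and 11, then 0, 8 and 3, then 2, 1 and 8, and 4, 39 and 34 counts, and a log2 fold change of 2.75 ± 0.86 in obese mice (FDR = 0.400). Tumor 1 of the anti–PD-1–treated obese mice was lower than the others for both chains. Cd4 had 18, 42 and 17, then 7, 13 and 11, then 16, 12 and 11, and 6, 26 and 38 counts. In obese mice its log2 fold change was 0.79 ± 0.50 (95% interval -0.29 to 1.87, FDR = 0.742), the 3 anti–PD-1–treated tumors spanning the isotype tumors. In nonobese mice Cd4 fell in all 3 anti–PD-1–treated tumors relative to all 3 isotype tumors in CPM, by 1.14 ± 0.51 on the log2 scale (FDR = 0.925).

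Cd8a had more counts than Cd4 in each of the 3 anti–PD-1–treated obese tumors and fewer than Cd4 in each of the other 9 tumors. The share of Cd8a among the counts of both genes was 68.75% in that group (154 of 224 counts, exact 95% interval 62.2% to 74.8%). It was 35.3% (26.8% to 44.6%), 31.1% (18.2% to 46.6%) and 30.4% (18.8% to 44.1%) in isotype nonobese, anti–PD-1 nonobese and isotype obese mice. The intervals cover counting error only, and this ratio was picked after the counts were seen and was not tested. Tumor 1 of the anti–PD-1–treated obese mice kept this order with few counts, 9 against 6.

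**Figure D4:**
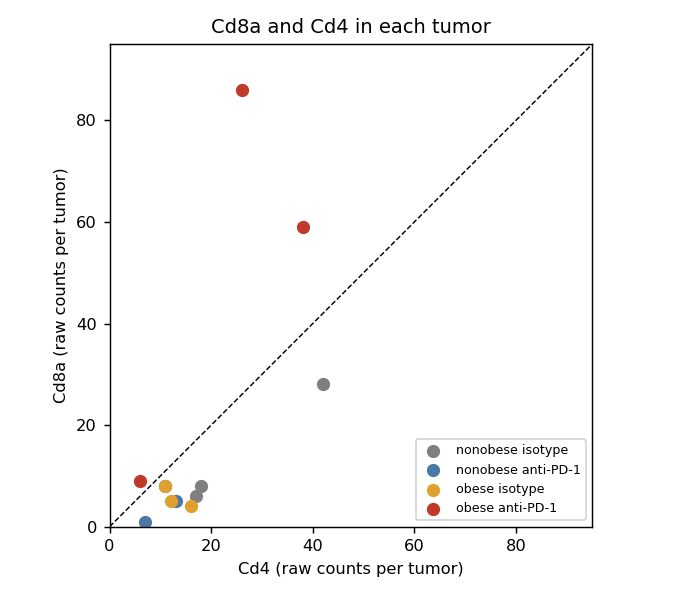
Raw counts of Cd8a (y axis) against Cd4 (x axis) in each of the 12 tumors, colored by group, with the dashed line at equal counts. The 3 anti–PD-1–treated obese tumors lie above the line and the other 9 below it.

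Of the 8 other surface molecules, Cd6, a scavenger-type receptor of T cells, was the one with enough counts to be tested. It had 3, 17 and 5 counts in isotype-treated nonobese tumors, 0, 4 and 2 with anti–PD-1, 2, 3 and 3 in isotype-treated obese tumors and 8, 18 and 30 with anti–PD-1. Its log2 fold change was 2.73 ± 0.75 in obese mice (SE, FDR = 0.286) and -1.86 ± 0.82 in nonobese mice (FDR = 0.924), opposite directions with a tested difference of 4.59 ± 1.11 (FDR = 0.122). Cd2, an adhesion molecule, had 3, 5 and 7, then 1, 12 and 1, then 4, 2 and 5, and 5, 24 and 34 counts. The costimulatory receptor Cd27 had 0, 3 and 1, then 0, 0 and 5, then 0, 0 and 2, and 1, 14 and 18 counts. Cd5, a restraint on receptor signaling, had 2, 1 and 7, then 3, 0 and 2, then 2, 4 and 5, and 0, 25 and 14 counts. These 3 genes had their highest counts in anti–PD-1–treated obese tumors 2 and 3, with tumor 1 of that group at 5, 1 and 0 counts. The costimulatory receptor Cd28 had 2, 5 and 0, then 0, 9 and 6, then 3, 3 and 4, and 0, 12 and 10 counts, a weaker separation, with an anti–PD-1–treated nonobese tumor at 9. Cd7 had 5, 10 and 2, then 0, 1 and 1, then 4, 0 and 3, and 6, 14 and 5 counts, so that its anti–PD-1–treated nonobese tumors lay below all isotype-treated nonobese tumors in CPM. Cd96, a receptor of T and NK cells, reached 13 counts in 1 anti–PD-1–treated obese tumor and at most 7 in the tumors of other groups, and Cd69, an early activation marker, never exceeded 5 counts.

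The signaling proteins split by abundance. Lck, the kinase that phosphorylates CD3, had 127, 173 and 82 counts in isotype-treated nonobese tumors, 91, 160 and 101 with anti–PD-1, 132, 51 and 106 in isotype-treated obese tumors and 58, 130 and 135 with anti–PD-1. Lat, the adaptor downstream of Zap70, had 54, 98 and 63, then 68, 67 and 82, then 82, 54 and 38, and 48, 57 and 100 counts. Their CPM ranges overlapped between all groups, and the log2 fold changes of anti–PD-1 in obese mice were 0.23 ± 0.24 for Lck (95% interval -0.28 to 0.74) and 0.26 ± 0.37 for Lat (-0.53 to 1.05), neither past the thresholds. The highest Lck levels were 6.39 and 6.16 CPM in anti–PD-1–treated obese tumors, against up to 5.55 CPM in the other groups. Zap70, the kinase recruited to phosphorylated CD3, was less abundant and had 5, 14 and 3, then 2, 6 and 7, then 1, 1 and 8, and 4, 28 and 27 counts. Ptprcap, a partner of the phosphatase CD45, had 4, 14 and 5, then 6, 12 and 10, then 7, 0 and 3, and 1, 25 and 23 counts. Its log2 fold change in obese mice was 2.29 ± 0.87 (FDR = 0.535), although tumor 1 of the anti–PD-1–treated mice, with 1 count, was below 2 of the isotype tumors. This call was lost on leaving out isotype obese tumor 2 or 3 or anti–PD-1 obese tumor 2 or 3 (log2 fold changes 1.84 to 2.21), and Ptprcap shares exon sequence with genes on both strands. Skap1, an adaptor of T cell adhesion, had 0, 10 and 14 counts in anti–PD-1–treated obese tumors and at most 3 elsewhere, Txk at most 6 counts and Sh2d1a at most 3 in any tumor.

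Among the transcription factors, Tcf7, which maintains memory-type and stem-like T cells, was the most counted of the 40 genes, and its level differed little between groups. It had 523, 803 and 340 counts in isotype-treated nonobese tumors, 397, 632 and 340 with anti–PD-1, 351, 232 and 363 in isotype-treated obese tumors and 219, 481 and 466 with anti–PD-1. The log2 fold change of anti–PD-1 was 0.32 ± 0.18 in obese mice (95% interval -0.07 to 0.72, FDR = 0.706) and -0.12 ± 0.18 in nonobese mice (-0.51 to 0.26, FDR = 0.951). Per kilobase of exon, the isotype-treated obese tumors had on average 6.13 CPM of Tcf7, 1.61 of Lck and 1.09 of Lat, against 0.0447 of Cd3e and 0.168 of Cd4. The summed level of the 3 genes was highest in anti–PD-1–treated obese tumors 2 and 3 (32.84 and 31.97 CPM, against 22.9 in tumor 1 and up to 31.6 in the other groups). The receptor chains summed to at most 6.10 CPM in any tumor, and whether the 3 genes rose by a similar number of CPM was not tested. Which cells of the tumor the RNA of Tcf7, Lck and Lat came from was not measured. Foxp3, which defines regulatory T cells, had 9, 7 and 5, then 4, 3 and 10, then 1, 0 and 3, and 3, 15 and 18 counts. It rose with anti–PD-1 in obese mice by a log2 fold change of 3.08 ± 0.86 (FDR = 0.298), from an isotype group with 4 counts in all, and the anti–PD-1–treated obese and isotype-treated nonobese groups overlapped. Foxp3 shares exon sequence with genes on the opposite strand, among them Ppp1r3f and Ccdc22. Eomes, a factor of cytotoxic T and NK cells, had 6, 14 and 11, then 6, 12 and 5, then 7, 8 and 6, and 6, 9 and 16 counts and a log2 fold change of 0.54 ± 0.55 in obese mice (95% interval -0.65 to 1.73). Tbx21, its relative in type 1 responses, never exceeded 8 counts and Bcl11b, a T lineage factor, never exceeded 9.

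Of the 7 effectors, Prf1, Gzmb and Nkg7 had enough counts to be tested, and all 3 rose with anti–PD-1 in obese mice. Prf1, the pore-forming perforin, had 10, 30 and 6 counts in isotype-treated nonobese tumors, 0, 4 and 13 with anti–PD-1, 4, 1 and 4 in isotype-treated obese tumors and 10, 120 and 43 with anti–PD-1. Gzmb, a protease that perforin lets into target cells, had 10, 18 and 5, then 2, 1 and 7, then 3, 2 and 3, and 6, 56 and 38 counts. Nkg7, a membrane protein of cytotoxic granules, had 4, 17 and 9, then 0, 2 and 6, then 5, 3 and 7, and 10, 92 and 45 counts. For these 3 genes, all anti–PD-1–treated obese tumors lay above all isotype-treated obese tumors in CPM, and their tumor 1 lay within the range of the isotype-treated nonobese tumors or above it by CPM. The log2 fold changes in obese mice were 4.22 ± 0.99 for Prf1 (SE, FDR = 0.206), 3.56 ± 0.78 for Gzmb (FDR = 0.202) and 3.25 ± 0.81 for Nkg7 (FDR = 0.232). In nonobese mice they were -1.16 ± 0.93, -1.42 ± 0.79 and -1.72 ± 0.93, with no P below 0.05, and the differences between diets were 5.38 ± 1.36, 4.98 ± 1.11 and 4.97 ± 1.23 (FDR = 0.130, 0.118 and 0.128). Gzma, another granzyme, had no counts in the 3 isotype-treated obese tumors and 0, 8 and 11 with anti–PD-1, so that 1 tumor of the second group also had none. The ratio of these 19 counts to 0 has a 95% interval that starts at 4.79, for counting error only. Gzma also had 9 counts in 1 isotype-treated nonobese tumor and 3 in 1 anti–PD-1–treated nonobese tumor. Ifng, the cytokine interferon-γ, had 1, 0 and 2, then 0, 1 and 4, then 0, 0 and 1, and 1, 12 and 6 counts, pooled counts of 19 against 1 in obese mice with a ratio of 19.5 (95% interval 3.10 to 811, counting error only). Gzmk never exceeded 4 counts and Fasl, the ligand of the death receptor Fas, never exceeded 5. Granzymes have similar copies in the genome, and reads shared between copies could have been split or dropped in counting.

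The 4 NK receptors were low in all groups, and their sum, though not Ncr1, was highest in anti–PD-1–treated obese tumors 2 and 3. Klrk1, the activating receptor NKG2D of NK and CD8+ T cells, had 1, 10 and 4 counts in isotype-treated nonobese tumors, 1, 4 and 6 with anti–PD-1, 5, 0 and 1 in isotype-treated obese tumors and 0, 27 and 19 with anti–PD-1. Klrc1, which encodes the inhibitory chain NKG2A, had 1, 7 and 7 counts in anti–PD-1–treated obese tumors and at most 1 in any other tumor. Its partner chain Klrd1 reached 5 and 6 counts there and at most 3 elsewhere. Ncr1, encoding NKp46, the marker most restricted to NK cells among the 4, had 1, 3 and 1 counts in these tumors and its highest count, 7, in isotype-treated nonobese tumor 2. None of the 4 passed the count filter, and summed they had 28, 13, 11 and 77 counts in the 4 groups.

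Il2rb, the signaling β chain shared by the IL-2 and IL-15 receptors of T and NK cells, had 20, 63 and 21 counts in isotype-treated nonobese tumors, 3, 10 and 26 with anti–PD-1, 12, 13 and 12 in isotype-treated obese tumors and 19, 158 and 97 with anti–PD-1. Its level rose with anti–PD-1 in obese mice from 0.662 ± 0.217 to 4.51 ± 3.22 CPM (SD, n = 3), a log2 fold change of 2.80 ± 0.72 (SE, FDR = 0.248). In nonobese mice the log2 fold change was -1.19 ± 0.71 (FDR = 0.929), and the difference was 3.99 ± 1.01 (FDR = 0.130). The α chain Il2ra, which activated and regulatory T cells express, had 4, 4 and 8, then 0, 4 and 2, then 3, 4 and 1, and 0, 3 and 6 counts. Its highest count was in an isotype-treated nonobese tumor, and the anti–PD-1–treated obese tumors did not stand apart.

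Tumor 1 of the anti–PD-1–treated obese mice had few counts of most roles. It held 36 counts of the receptor chains, 19 of coreceptors, 27 of effectors and 2 of NK receptors. The other surface molecules had 23 counts there and the IL-2 receptor chains 19. Signaling proteins and transcription factors, which include Tcf7, Lck and Lat, had 113 and 231 counts. Differences between roles within this tumor were not tested. For the receptor chains, tumor 1 had 2.54 CPM, against at most 0.811 CPM outside the group. For coreceptors it had 1.34 CPM, against up to 1.29 CPM in isotype-treated obese and 2.47 CPM in isotype-treated nonobese tumors, and for the 7 effectors 1.903 CPM, against up to 0.811 and 2.20 CPM. For NK receptors it had 0.141 CPM, within the range of every other group. In tumors 2 and 3 the effectors summed to 14.4 and 6.79 CPM. Counts of the 7 effectors were 0.771 times those of the 3 CD3 chains in tumor 1 and 2.87 and 1.32 times in tumors 2 and 3, within the spread of the other groups (0.8125 to 3.41 where the CD3 chains had a count), except that tumor 1 was the lowest.

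Other T and NK genes also moved. Of 52 such genes, 51 were in the table and 26 passed the filter. In obese mice anti–PD-1 raised 8 of the 26 past the thresholds, among them Cd244, Ctsw, Gzmc, Ikzf3, Rhoh, Sh2d2a and Slamf7, where 2.24% of all genes tested were called higher, with a median log2 fold change of 0.92. In nonobese mice 4 of the 26 fell (Lcp2, Rhoh, Runx3 and Thy1), where 2.31% of all genes were called lower. The interaction was called for 12, all more positive in obese mice (4.93% of all genes), among them Rhoh, a GTPase of lymphocytes, with a log2 difference of 3.11 ± 0.90 (FDR = 0.175). Zbtb7b, Prkcq and Thy1, which had the most counts, reached 17016, 11690 and 5749 counts over all tumors. Of these, Thy1 alone was called in a comparison of treatments, falling by 1.12 ± 0.39 on the log2 scale in nonobese mice (FDR = 0.833). Of the ligands of PD-1, Cd274 (PD-L1) had 208, 324 and 127, then 93, 273 and 397, then 229, 123 and 175, and 200, 440 and 346 counts, a log2 fold change of 0.95 ± 0.35 in obese mice (FDR = 0.521), under the fold threshold. Pdcd1lg2 (PD-L2) was too low to be tested, with 2, 7 and 3, then 0, 2 and 0, then 0, 0 and 0, and 0, 5 and 7 counts.

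Markers of other cells moved as well, and their part in these results was not tested. Of the 5 general leukocyte markers, 4 were called higher in obese mice given anti–PD-1, and their summed CPM ranged from 55.1 to 116 in isotype-treated nonobese, 36.8 to 43.2 in anti–PD-1–treated nonobese, 29.2 to 60.6 in isotype-treated obese and 48.8 to 137 in anti–PD-1–treated obese tumors. Counts of the 37 genes were 21.0%, 35.7% and 26.3% of the leukocyte marker counts in the anti–PD-1–treated obese tumors. In the other 9 tumors this share lay between 6.34% and 17.2%. With Tcf7, Lck and Lat included, the counts of all 40 genes were 67.9%, 59.7% and 49.9% of the leukocyte marker counts in the anti–PD-1–treated obese tumors and between 36.3% and 97.8% in the others, so that these tumors stood apart only for the 37 genes, a set made after the counts were seen. T cells also express the leukocyte markers. Relative to the counts of 9 macrophage markers, the share was 4.69%, 11.1% and 7.54% in these tumors and between 1.53% and 3.93% in the others for the 37 genes, and 15.2%, 18.5% and 14.3% against 9.75% to 21.3% for all 40. Of the macrophage markers, 1 of 9 was called higher in obese mice (Csf1r) and 4 of 9 lower in nonobese mice. The difference between the responses was called, more positive in obese mice, for 8 of 9 macrophage, 5 of 5 leukocyte, 7 of 10 fibroblast and 8 of 9 adipocyte markers. Under anti–PD-1, obese mice were higher than nonobese mice for 6 of 9 macrophage, 5 of 5 leukocyte, 4 of 10 fibroblast and 8 of 9 adipocyte markers. The macrophage sum ranged from 204 to 439, 144 to 186, 147 to 286 and 218 to 471 CPM in the 4 groups. Of 10 fibroblast markers, 7 were lower with anti–PD-1 in nonobese mice and none was called in obese mice. Among 6 dendritic cell markers tested, Itgax alone was called with anti–PD-1, higher in obese and lower in nonobese mice. Itgax was also called in the interaction, and Itgax and Cd209a were higher in obese mice under anti–PD-1. Under isotype, where Cd3d was called lower in obese mice, 4 of 9 adipocyte, 2 of 9 macrophage, 1 of 5 leukocyte and 1 of 10 fibroblast markers were called lower as well. Adipocyte markers were called higher in obese mice with anti–PD-1 for 8 of 9 tested and lower in nonobese mice for 3 of 9, with sums of 25.8 to 54.8, 21.2 to 32.7, 23.1 to 29.9 and 45.4 to 105 CPM. Their median log2 fold change was 3.01 in obese and -1.37 in nonobese mice, against 2.80 and -1.13 for the 17 genes. For diet under anti–PD-1, 3 of these 9 markers had an edgeR FDR below 0.05, and none of the 17 genes did. Anti–PD-1–treated obese tumor 3 held the most B cell marker counts, 248 over 9 genes against 30 to 178 in the other tumors, with Ms4a1 at 8 counts, whereas Ms4a1 was at 0 in 5 of the 12 tumors and Pax5 in 8. Tumor 2 of that group, which had the most counts of the 37 genes, had 84 B cell marker counts, with Ms4a1 at 1 and Pax5 at 0. Skeletal muscle markers summed to 9.96 to 47.0 CPM in the 4 tumors numbered 1 and to 22.6 CPM in isotype obese tumor 2, against 153 to 683 CPM in the other 7. With anti–PD-1 in obese mice, 2 of the 10 muscle markers (Actn3 and Mylpf) were called higher, the median log2 fold change of the 10 was 2.41, and the sums were 13.8, 22.6 and 153 CPM with isotype and 47.0, 306 and 683 CPM with anti–PD-1. Of 3 B cell markers tested, Cd79b was called higher in the same comparison. The summed CPM of the 37 genes was also lowest in tumor 1 of each group, at 4.62, 2.34, 4.37 and 10.2. Leaving out the 4 tumors numbered 1, an alternative chosen after seeing the data, gave 13 of the 17 genes called higher in obese mice, namely the 12 called with all tumors and Cd4, where 5.28% of all genes were called higher in the same fit. It gave 2 called lower in nonobese mice, where 3.1% of all genes were called lower.

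**Figure D5:**
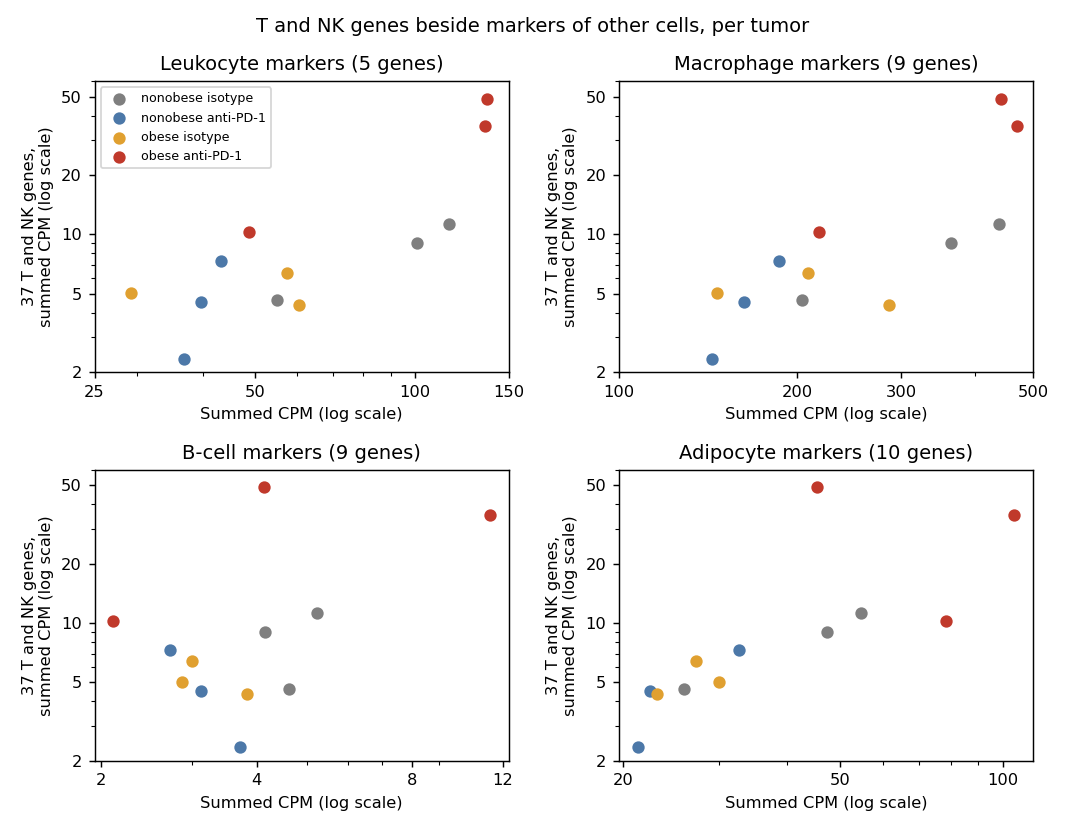
Summed CPM of the 37 genes (y axis) against summed CPM of leukocyte, macrophage, B cell and adipocyte markers (x axes), all on log scales, with a point for each of the 12 tumors colored by group. At a given leukocyte or macrophage level the anti–PD-1–treated obese tumors had more of the 37 genes, which does not hold for the counts of all 40 genes with Tcf7, Lck and Lat, and tumor 1 of that group combined 10.2 CPM of them with 48.8 CPM of leukocyte markers.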

How the data were processed

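The authors prepared stranded poly(A) libraries, aligned single-end reads to mm10 with STAR 2.7.0f and counted them per gene with HTSeq 0.9.1, per the submitters' processing notes, which also name FastQC 0.11.5 and edgeR 3.28.1. They deposited unnormalized whole-number counts of 23420 genes in 12 tumors, and 0 columns were left unused. Whether counting used strand is not given in the sources used here. Since the labels do not describe the replicates further than as separate samples, p-values measure the spread between these tumors. Of the 40 genes, 12 share exon bases with another GENCODE gene and 8 of them with one on the opposite strand, whose reads may not be told apart. Reads had no molecular identifiers. Counts were scaled by TMM and fitted in edgeR 4.0.16 (R 4.3.3) with 4 group means and 8 residual degrees of freedom after filterByExpr, and tested with the quasi-likelihood F-test in its earlier form (legacy=TRUE), the study's method. Standard errors came from the F statistic, 95% intervals used the moderated degrees of freedom, and FDR values are Benjamini-Hochberg over 13095 genes. Calls use a fold above 2 and an unadjusted P below 0.05. DESeq2 1.42.0 was an alternative, and its missing adjusted values were not counted. Levels per length used exon lengths of GENCODE. CPM of a list is its summed count relative to the TMM-scaled total.

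The members and lists were chosen with earlier results of these data known. All 40 genes could be named, and beyond them the 4 most counted and the called genes of the further T and NK list, PD-1 and its ligands, and marker genes. Some genes that this rule names are not reported here. The code was tested on simulated counts. Alternatives covered the test (DESeq2), the scaling (RLE or none), 2 filters on counts, the newer glmQLFit, the replicate number as a block, a model of the compared tumors only, sums without Tcf7, and leaving out each tumor.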

Additional observations from a re-analysis of the deposited data

Results flagged for a closer look

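The response to anti–PD-1 differed between obese and nonobese mice, by a test of the difference itself at a fold above 2 and an unadjusted P below 0.05, for 12 of the 17 genes tested, where 4.93% of 13095 genes were called in that direction. Several of the 17 passed the count filter through the anti–PD-1–treated obese tumors alone. Without the filter, 19 of the 40 genes were called, against 4.78% of 17519 genes. The log2 differences, obese minus nonobese, were 6.05 for Cd3d, 4.29 for Cd3g and 2.93 for Cd3e among the receptor chains, 4.43 for Cd8a, 4.26 for Cd8b1 and 1.93 for Cd4 among the coreceptors, and 4.59 for the surface molecule Cd6. They were 5.38 for Prf1, 4.98 for Gzmb and 4.97 for Nkg7 among the effectors, 3.18 for the regulatory T cell factor Foxp3 and 3.99 for the receptor chain Il2rb. For Cd3e and Foxp3 the nonobese response was near 0 (log2 fold changes of -0.08 and -0.10), and for Cd4 the obese response did not pass the thresholds with all tumors and did so without the tumors numbered 1, its log2 fold changes with all tumors being 0.79 in obese and -1.14 in nonobese mice. In the edgeR quasi-likelihood test, FDR values over all genes ranged from 0.118 to 0.285 for these 12 genes. The difference of Cd4 lost its call without isotype nonobese tumor 2 (1.64) or anti–PD-1 obese tumor 3 (1.55), that of Cd3g without isotype nonobese tumor 2 (3.24), and that of Foxp3 without the tumors numbered 1 (3.05).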

How the results depend on the processing

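No alternative reversed the direction of the summed CPM of all 40 genes or of a gene in a comparison that called it, and genes were not followed in comparisons that did not call them. For anti–PD-1 in nonobese mice, where 2 of the 17 genes were called, DESeq2 at the same thresholds called 0, a filter of at least 10 counts in every tumor 0, a model of only the compared tumors 1 and leaving out a tumor between 0 and 6. For diet under isotype, where 1 was called, the filter of 10 counts called 0, the current form of glmQLFit 0, only the compared tumors 3 and leaving out a tumor between 0 and 3. With every gene kept, the calls were 20 for anti–PD-1 in obese mice, 20 for diet under anti–PD-1 and 19 for the difference between the responses, against 12, 11 and 12 with the filter. The filter of 10 counts gave 0 calls in these comparisons, since it left 3 genes, Tcf7, Lck and Lat. DESeq2 and RLE scaling left these counts at 12, 11 and 12, and leaving out a tumor gave 11 to 13, 10 to 13 and 10 to 13. The labels do not say that a replicate number is shared between groups of mice, so that the numbers were not taken to pair tumors. Deviations of same-numbered tumors had a mean correlation of 0.133 (-0.264 to 0.563), higher than the -0.0623 (-0.555 to 0.447) of other pairs. Whether the numbers mark something shared was not tested. With the replicate block, 6 genes were called for anti–PD-1 in nonobese mice and 2 for diet under isotype, and the block changed no other count. Shares of all genes called with the block, with a single tumor left out or with only the compared tumors are not given. Counts from those fits can therefore not be set against a background. The log2 ratio of the summed CPM of all 40 genes, 1.06 for anti–PD-1 in obese mice and 0.98 for diet under anti–PD-1, became 1.65 and 1.71 without Tcf7. Without Tcf7, Lck and Lat, an alternative chosen after seeing the data, it was 2.58 and 2.74 there, and -0.81 for anti–PD-1 in nonobese mice and -0.65 for diet under isotype. Of the 40 genes, 25 stayed below 30 counts in every tumor, which limits what can be said of any one of them.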
